A study of Mus musculus with 4 samples.

Results

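Collagen and laminin chains are the building blocks of the lung's scaffold, and 40 of the 8251 genes on the array encode one. They were chosen by name, as every probe set whose platform annotation gave a single gene symbol of the form Col, number, a, number, or Lama, Lamb or Lamc followed by a digit. This took 58 probe sets, 44 for collagens and 14 for laminins. A probe set is a group of short probes that together read 1 transcript. Of the 40 genes 8 are fibrillar collagens, 8 basement membrane collagens, 15 other collagens and 9 laminins.

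RNA came from pools of whole lungs, all from the inbred mouse strain C57BL/6J, making 4 samples that were each read on 1 Affymetrix mouse array. One pool was of unexposed lungs, and the other 3 were of lungs taken 6, 18 and 90 h after mice breathed an aerosol of hexamethylene diisocyanate (HDI) at 10 mg per cubic metre. HDI is a reactive chemical of polyurethane paints that irritates the airways. The labels give neither the number of mice in a pool nor the length of exposure. Whether the unexposed mice breathed clean air in a chamber is not stated in the labels. With 1 array per group there is no spread between replicates, no test was possible, and every fold below describes these arrays. The 3 comparisons with unexposed lungs share 1 array, so an error of that array enters all of them.

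Values are intensities in array units after each array was scaled to the same trimmed mean. The scale factors lay between 0.970 and 1.07. A floor of 77.7 units, the 40th percentile over the 4 arrays, replaced anything dimmer, and a fold against the floor is a bound. A gene was compared where the mean of its 4 intensities lay above the floor, which 30 of the 40 chains and 5760 of the 8251 genes did. Where a gene had several probe sets, the brightest stands for it. As a yardstick of error, the log2 differences of 2 probe sets of the same gene gave a robust SD of 0.21 to 0.27 per probe set, about 1.16-fold to 1.21-fold. That yardstick leaves out differences between animals, pools and hybridisations. Gapdh control probes at the 3' end read 1.21, 1.16, 1.12 and 1.22 times those at the 5' end in the unexposed, 6, 18 and 90 h pools, a measure of how intact the RNA was. The same ratio for beta-actin was likewise lower at 6 and 18 h than in unexposed lungs and highest at 90 h, at 1.55. The lung epithelial transcripts Sftpc, which encodes surfactant protein C, and Scgb1a1, of club cells, read 9138 to 9871 and 8005 to 10632 units. In whole lung, fewer cells of a type and less RNA per cell cannot be told apart.

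Collagens are proteins of 3 chains wound into a triple helix. Fibrillar collagens, chiefly types I, III and V, assemble into the rope-like fibrils of the interstitium and airway wall, and are made mainly by fibroblasts. Type IV collagen instead forms a sheet-like network, which together with laminins, nidogen and perlecan makes up the basement membrane under epithelium and around endothelium. Laminins are cross-shaped assemblies of an alpha, a beta and a gamma chain that cells grip through integrins and dystroglycan. After lung injury new matrix is laid down during repair, and in excess it becomes fibrosis.

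**Figure D1:**
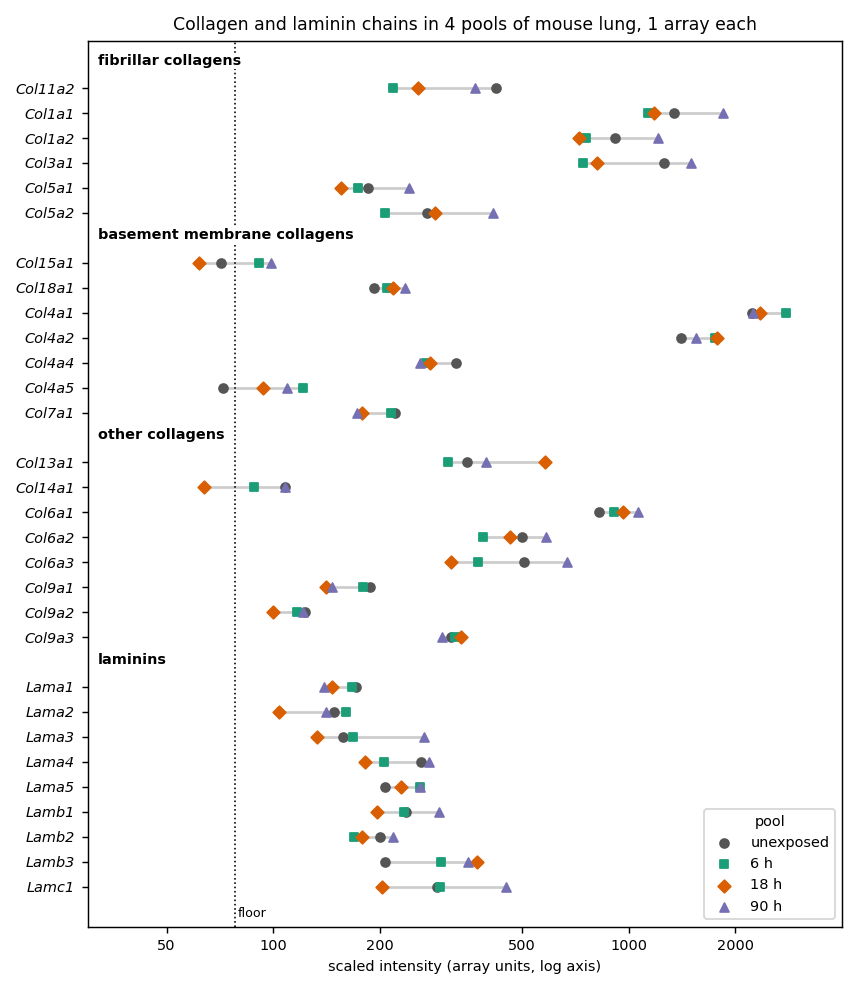
Scaled intensity (array units, log axis) of the 30 compared chains in the unexposed, 6, 18 and 90 h pools, 1 point per array. The dotted line is the floor of 77.7 units. Fibrillar collagens of types I, III and V have their highest point at 90 h, while Col4a1 has its highest at 6 h. Points of different genes cannot be set against each other, since probe sets differ in brightness.

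The fibrillar collagens were mostly lower than in unexposed lungs at 6 and 18 h and higher at 90 h. Their median log2 difference from the unexposed pool was -0.33 at 6 h, -0.30 at 18 h and 0.39 at 90 h in 6 compared genes. The medians over all compared genes were -0.03, -0.01 and 0.03. All 6 were below the unexposed pool at 6 h, although Col1a1, Col1a2 and Col5a1 by no more than the yardstick of 0.27. At 18 h 5 of 6 were below it, Col1a1 and Col5a1 by less than the yardstick of 0.27. At 90 h 5 of 6 were above it. Of all 5760 compared genes 3104 were below it at 6 h, 2930 below at 18 h and 3093 above at 90 h. The 3' to 5' ratios of Gapdh and beta-actin were low and high in the same pools, and their part in this course was not tested. The 90 h pool was the highest of the 4 for 5 of the 6, against 25.8% of all compared genes. The 6 h pool was the lowest for 4 of them and the 18 h pool for the other 2, against 28.1% and 23.4% of all compared genes.

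Type I collagen, the most abundant fibre of the interstitium, has an alpha 1 chain from Col1a1 and an alpha 2 chain from Col1a2. Col1a1 read 1339.5, 1134, 1176 and 1843 units in the unexposed, 6, 18 and 90 h pools. The 90 h pool stood above the other 3, and the 6 and 18 h pools were the lowest. The log2 differences from unexposed were -0.24, -0.19 and 0.46. Col1a2 read 914, 759.5, 725 and 1210.4 units in the same order. Its differences of -0.27, -0.33 and 0.40 ran close to those of its partner chain. Its other probe set read 180.2, 148, 113 and 134 units and was below the unexposed level at 90 h too (-0.43).

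Type III collagen, a homotrimer that mixes with type I in distensible tissue, comes from Col3a1. Its intensities were 1259.6, 743, 816 and 1501 units. Col3a1 was 1.70-fold lower than in unexposed lungs at 6 h and 1.54-fold lower at 18 h, and 1.19-fold higher at 90 h. From 18 to 90 h it was 1.84-fold higher, the largest step among the fibrillar chains in these data. Its second probe set, at 225, 155, 147 and 278 units, was likewise low at 6 and 18 h and highest at 90 h. The last one was below the floor in the first 3 pools and at 126 units at 90 h. With all its probe sets averaged, Col3a1 was under 1.5-fold at 6 h (log2 -0.43) and at 18 h (-0.41).

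Type V collagen chains sit inside type I fibrils and limit their width. Col5a1 read 185, 173, 155 and 240.3 units, and its other probe set 127, 132, 108 and 161 units. Both probe sets were lowest at 18 h and highest at 90 h. Col5a2, the neighbour of Col3a1 on its chromosome, read 269.9, 206, 285 and 415 units. It was 1.54-fold above the unexposed pool at 90 h, the furthest of the fibrillar chains. Unlike the others of types I, III and V it was not below the unexposed level at 18 h. With a pseudocount in place of the floor its difference at 90 h was 0.50, under 1.5-fold.

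Upstream sequences are shown for 3 fibrillar chains whose brightest probe set was lower at 6 h and higher at 90 h. They set the start regions side by side. For Col5a1 the log2 difference at 6 h was only -0.09, and its other probe set was higher then (0.06). The other probe set of Col1a2 was lower at 90 h (-0.43). RefSeq start windows (build GRCm38.p6) were found for 27 of the 40 chains. Col1a1 and Col5a2 were not among them. Each line gives the 250 bases upstream of the annotated start, 5' to 3' on the plus strand, at chr6:4505368-4505617, chr1:45311288-45311537 and chr2:27886175-27886424. Capitals mark matches, on either strand, to 4 motifs: CCAAT (the CCAAT box), GGGCGG (the GC box bound by Sp1), TATAAA (the TATA box) and TGANTCA (the AP-1 site).
Col1a2: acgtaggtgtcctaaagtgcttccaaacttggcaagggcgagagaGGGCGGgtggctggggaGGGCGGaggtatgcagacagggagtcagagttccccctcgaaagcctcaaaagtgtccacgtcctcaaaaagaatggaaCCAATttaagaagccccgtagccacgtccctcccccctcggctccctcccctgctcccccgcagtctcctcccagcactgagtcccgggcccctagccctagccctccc
Col3a1: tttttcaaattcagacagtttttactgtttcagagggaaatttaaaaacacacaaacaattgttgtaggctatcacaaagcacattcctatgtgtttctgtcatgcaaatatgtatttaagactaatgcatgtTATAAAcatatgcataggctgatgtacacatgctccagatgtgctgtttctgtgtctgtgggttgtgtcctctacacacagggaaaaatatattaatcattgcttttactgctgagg
Col5a1: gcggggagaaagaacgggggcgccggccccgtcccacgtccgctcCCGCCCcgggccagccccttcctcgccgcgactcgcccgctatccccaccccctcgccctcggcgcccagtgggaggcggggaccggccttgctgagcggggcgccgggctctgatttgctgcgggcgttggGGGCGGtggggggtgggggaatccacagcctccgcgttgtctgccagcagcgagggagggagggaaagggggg

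These windows had little in common in letters. Col1a2 held 1 CCAAT match, 109 bases upstream of the start, and 2 GC boxes, 205 and 188 bases upstream. Col5a1 held 2 GC boxes, while the Col3a1 window, with 35.2% G and C against 62% for Col1a2 and 76.4% for Col5a1, held a TATAAA match 117 bases upstream. No AP-1 match was found in the 3 windows. Of all 32851 windows of that length 33.8% held CCAAT, 32.7% GGGCGG, 12.4% TATAAA and 6.75% TGANTCA. Among the 27 chains 9, 13, 5 and 1 did. A match describes letters and is no measured binding site.

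Type XI and type II collagens are the fibrillar collagens of cartilage. Col11a2 read 424, 217, 255 and 369 units and was the chain furthest from unexposed lungs at 6 h, 1.96-fold lower. It was 1.66-fold lower at 18 h and 1.15-fold lower at 90 h, so that it alone of the 6 was highest in the unexposed pool. Its partner chains were dim: Col11a1 lay between 29.4 and 36.4 units and Col2a1 between 29.2 and 48.5 units, under the floor in all pools. Of 8 cartilage markers on the array 6 were compared, with medians of -0.14, -0.23 and -0.16 at 6, 18 and 90 h and summed intensities of 1564, 1409, 1883 and 1835 units in the 4 pools. The sum was highest at 18 h, where 4 of the 6 markers were below the unexposed pool and the marker Chil1 was 1.70-fold higher. Chad, a cartilage matrix protein, read 272, 172, 142 and 250.1 units, low in the same pools as Col11a2. The dim marker Mia, at 92.7, 75.7, 75.7 and 80.0 units, was under the floor in those pools too. Others were not low in both. Matn4, a matrilin, read 288, 243, 352 and 495 units, and Chil1 659, 653, 1119 and 818 units. The part of cartilage in the samples in that course was not tested.

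**Figure D2:**
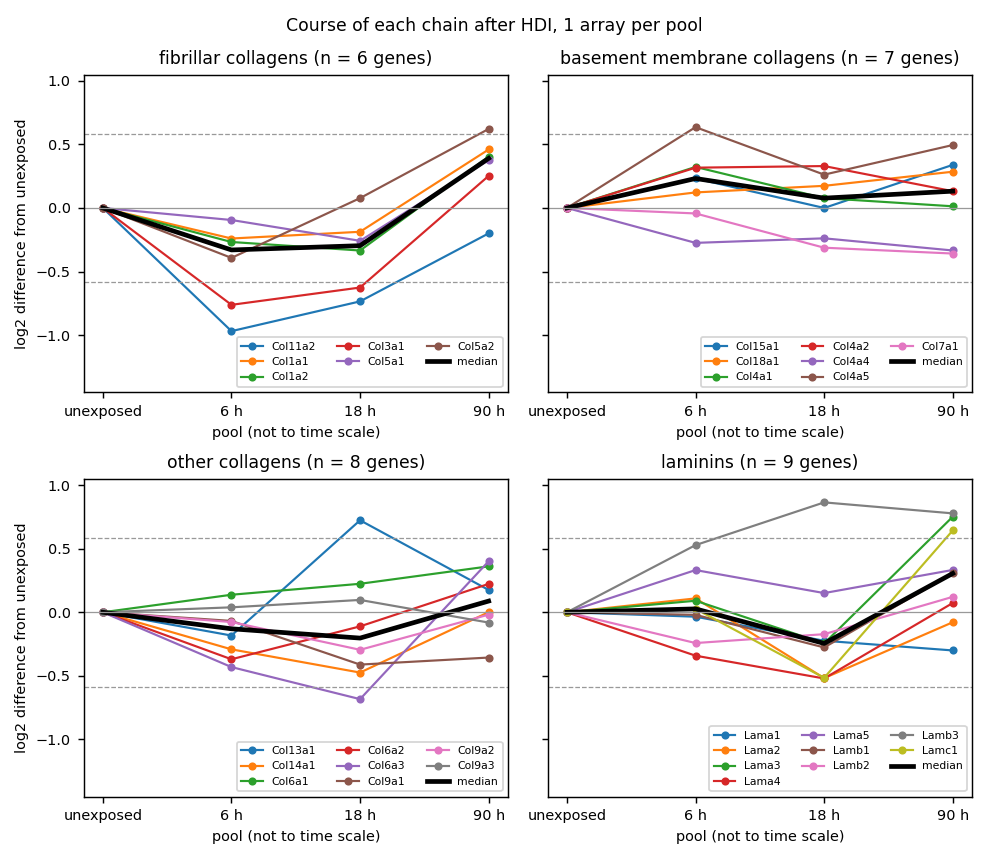
Log2 difference from the unexposed pool (y axis) in the 4 pools (x axis, not to time scale) for each compared chain, by class. Thin lines are genes, the thick black line is the class median, and dashed lines mark 1.5-fold. The fibrillar median goes from -0.33 at 6 h to 0.39 at 90 h, and Lamb3 lies between 0.53 and 0.86 in the 3 exposed pools.

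The basement membrane collagens did not share that course. Their median log2 differences were 0.23, 0.08 and 0.13 at 6, 18 and 90 h in 7 compared genes. The median at 6 h is the value of Col15a1, a bound because that gene was under the floor in unexposed lungs, at 71.2 units. Col4a1 and Col4a2 encode the 2 chains of the type IV network found in nearly all basement membranes. Col4a1 read 2223, 2780.5, 2345 and 2243 units, highest at 6 h and close to the unexposed level at 90 h. Col4a2 read 1408, 1754, 1770.0 and 1543 units, with the unexposed pool lowest. Both were 1.25-fold higher at 6 h (log2 0.32), little beyond the yardstick of 0.27 for a single probe set. At 18 h Col4a2 was still 1.26-fold higher and Col4a1 1.06-fold. The annotated starts of these neighbouring genes lie 21 bases apart, on opposite strands.

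The remaining type IV chains went different ways. Col4a5, which joins the specialised networks of alveoli and kidney, read 72.2, 121, 93.2 and 109.5 units. It was below the floor in unexposed lungs and at least 1.55-fold higher at 6 h. Col4a4 read 326, 269.8, 277 and 259 units, 1.21-fold, 1.18-fold and 1.26-fold lower than unexposed at the 3 times. Col4a3, its neighbour and partner chain, lay between 2.1 and 19.2 units, under the floor in all pools, and gave no fold.

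Types XV and XVIII collagen lie at the rim of the basement membrane, and the end fragment of type XVIII is endostatin. Col18a1 read 192, 209, 217 and 234 units, at most 1.22-fold above unexposed. Its second brightest probe set, at 148, 176, 185 and 202 units, had the same order. Another, at 55.7, 126, 128 and 143 units, was below the floor in unexposed lungs alone. The remaining 2 were under the floor in all pools. Col15a1 stayed near the floor at 61.8 to 98.3 units. Col7a1, which forms the anchoring fibrils under stratified epithelium, read 220.3, 214, 177 and 172 units, 1.28-fold lower at 90 h than unexposed.

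**Figure D3:**
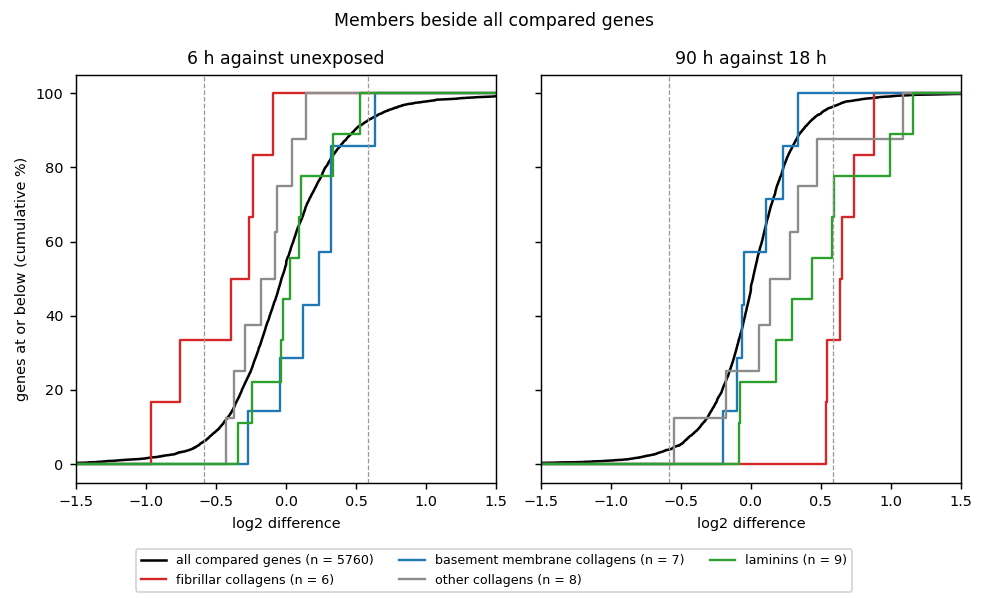
Cumulative share of genes (y axis, %) at or below a log2 difference (x axis) for 6 h against unexposed and 90 h against 18 h, with all 5760 compared genes in black and the 4 classes in colour. Dashed lines mark 1.5-fold. At 6 h the fibrillar steps lie left of the black curve, and from 18 to 90 h all 6 lie between 0.54 and 0.88.

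Among the laminins Lamb3 stood apart at 18 h. Lamb3 is the beta chain of the epithelial laminin that anchors airway and skin epithelium. It read 206, 297.0, 375 and 353 units, with every exposed pool above the unexposed one. The folds were 1.44, 1.82 and 1.72 at 6, 18 and 90 h. A second, dim probe set read 83.3, 85.2, 94.2 and 71.8 units and did not show this, with log2 differences of 0.03, 0.18 and -0.10. Averaged over both, Lamb3 was under 1.5-fold, at 0.52 at 18 h and 0.34 at 90 h. Lama3 was flat at first and then higher, at 157, 168, 133 and 265 units, 1.68-fold above unexposed at 90 h. It rests on 1 probe set, whose suffix marks probes shared by several transcripts, and with a pseudocount in place of the floor the difference was 0.54.

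Several other laminin chains had their low point at 18 h. Lama2, the alpha chain of muscle and mesenchymal basement membranes, read 148, 160, 103 and 140.3 units. Lama4, the alpha chain of endothelial basement membranes, read 259.9, 205, 181 and 273 units. Both were lowest at 18 h, 1.43-fold and 1.44-fold under the unexposed pool. Lamc1, the gamma chain of most laminins, read 289, 294, 202 and 451 units. It was 1.43-fold lower at 18 h and 1.56-fold higher at 90 h, but under 1.5-fold at 90 h with a pseudocount (0.53) or with its probe sets averaged (0.32). Lamc1 was read by a probe set marked for possible cross-hybridisation, and its only other probe set was under the floor in all pools. Lamb1, the partner beta chain, read 237, 234, 196 and 293 units, with the same low and high pools. Its second probe set read 159, 143, 127 and 185 units, again lowest at 18 h and highest at 90 h.

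The other laminin chains differed less. Lama5, the alpha chain of mature epithelial and vascular basement membranes, read 206, 259, 228 and 259 units, but its other probe set read 119, 113, 89.3 and 95.1 units, with the unexposed pool highest. Lamb2, the beta chain of vessel and nerve-muscle basement membranes, lay between 169 units at 6 h and 218 at 90 h. Lama1, the alpha chain of early embryonic basement membranes, read 171, 167, 146 and 139 units, 1.23-fold lower at 90 h. Over the 9 laminins the medians were 0.03, -0.25 and 0.31 at 6, 18 and 90 h. The 90 h pool was the highest of the 4 for 6 of the 9 and the 18 h pool the lowest for 5, against 25.8% and 23.4% of all compared genes. Lama5 is among the 6 with hardly any lead, at 259.1 units against 258.9 at 6 h.

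Of the other collagens 8 of 15 were compared, with medians of -0.13, -0.20 and 0.09. Type VI collagen forms beaded filaments next to cells, from chains of Col6a1, Col6a2 and Col6a3. Col6a3 read 507, 376, 316 and 670.0 units, 1.61-fold lower than unexposed at 18 h and 1.32-fold higher at 90 h. Col6a2 read 502, 389, 465 and 586 units, likewise highest at 90 h. Its chromosomal neighbour Col6a1 read 825, 908, 964 and 1059.7 units, above unexposed in every exposed pool, and its second probe set, at 214, 240.4, 263 and 301 units, had the same order. The chains of this 1 protein thus differed at 6 and 18 h, where Col6a1 was above and both others below the unexposed pool.

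Col13a1, a transmembrane collagen of cell adhesion sites, read 352, 309.7, 581 and 397 units, 1.65-fold above unexposed at 18 h. Its other probe set read 225, 224, 203 and 195 units, with no high value at 18 h. Both carry a suffix for less specific or fewer probes, and averaged over them the gene was under 1.5-fold at 18 h (0.29). Col14a1, a collagen that decorates fibrils, read 108, 88.2, 63.9 and 108 units and was under the floor at 18 h. The type IX chains of cartilage, Col9a1, Col9a2 and Col9a3, lay within 1.33-fold of unexposed at all times. Col10a1, Col12a1, Col17a1, Col22a1 and Col26a1 were under the floor in all pools and give no course, and Col8a1 and Col19a1 were under it in all but the 18 h pool.

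Counted at 1.5-fold, few chains differed from unexposed lungs. At 6 h 1 of 30 compared chains was higher (Col4a5) and 2 lower (Col11a2 and Col3a1). The background, over all 5760 compared genes, was 7.34% higher and 6.22% lower. At 18 h 2 chains were higher (Lamb3 and Col13a1) and 3 lower (Col11a2, Col3a1 and Col6a3). The background there was 6.94% and 6.27%. At 90 h 4 were higher (Lamb3, Lama3, Lamc1 and Col5a2) and 0 lower, against a background of 3.47% and 5.02%. As shares of the 30 chains, 3.33% were higher and 6.67% lower in the 6 h pool. In the 18 h pool the shares were 6.67% and 10%, and in the 90 h pool 13.3% and 0%. The shares at 6 and 18 h were near or below the background except for the 3 lower genes at 18 h, and the share higher at 90 h rests on 4 genes. Without scaling the counts at 18 h were 2 higher and 1 lower. At 2-fold no chain was called at any of these times. Among all compared genes 2.26% were higher and 1.58% lower by 2-fold at 6 h. The same shares were 1.63% and 0.99% in the 18 h pool, then 0.712% and 0.972% in the 90 h pool.

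From 6 to 18 h the chains as a whole differed little, with a median of -0.17 against 0.00 in all genes. Col13a1 was 1.88-fold higher and Lama2 1.54-fold lower, 1 of 30 in each direction against 5.4% and 4.77% of all genes. None passed 2-fold, where the background was 1.2% in each direction. All 5 laminin alpha chains were lower at 18 h than at 6 h, by 1.13-fold to 1.54-fold. Lama1, Lama4 and Lama5 were so by less than the yardstick of 0.25 for this comparison. Of all 5760 compared genes 2877 were lower at 18 h than at 6 h.

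The largest count of chains came between the 18 and 90 h pools, a comparison that does not use the unexposed array. Of 30 compared chains 8 were at least 1.5-fold higher and 0 lower, which is 26.7% and 0%, against 3.7% and 3.96% of all genes. The 8 were Col1a1, Col1a2, Col3a1, Col5a1, Col6a3, Lama3, Lama4 and Lamc1. Lamc1 was 2.23-fold and Col6a3 2.12-fold higher, the only 2 past 2-fold, against 0.885% of all genes higher and 0.955% lower. Lama3 was just under that line, at 133 units at 18 h and 265 at 90 h. Over all 30 chains the 90 h pool was the highest of the 4 for 17, or 56.7%, against 25.8% of all compared genes. The 17 include near ties, Lama5 with the 6 h pool and Col14a1 with the unexposed pool (108.03 against 107.96 units). All 6 fibrillar chains were higher, from 1.45-fold for Col11a2 to 1.84-fold for Col3a1, with a median of 0.64 against 0.01 in all genes. Laminins had a median of 0.44 and the basement membrane collagens one of -0.05. At the 1.5-fold line Lama4 lay just inside, at 0.59, and Lamb1 just outside, at 0.58. Lama4 was under the line with median scaling (0.57), quantile normalization (0.58) and a pseudocount (0.44), and Col5a1 was with a pseudocount (0.45).

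Further probe sets bore on these steps unevenly. From 18 to 90 h 10 pairs of a brightest and a further probe set were above the floor in both pools, and all 10 had the same sign, with a median gap of 0.06 log2 units. At 6, 18 and 90 h against unexposed 8 of 10, 8 of 10 and 6 of 9 pairs had the same sign. For Col1a1 the other probe set read 326, 265, 283 and 383 units, in the order of the brightest. When all probe sets of a gene were averaged, Col1a1 and Col1a2 came under 1.5-fold from 18 to 90 h, with log2 differences of 0.54 and 0.49, and so did Lamc1, at 0.58, and Lama4, at 0.30. For Lamc1 and Lama4 the averaged probe sets include dim ones at the floor. The count of chains at least 1.5-fold higher was then 4.

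**Figure D4:**
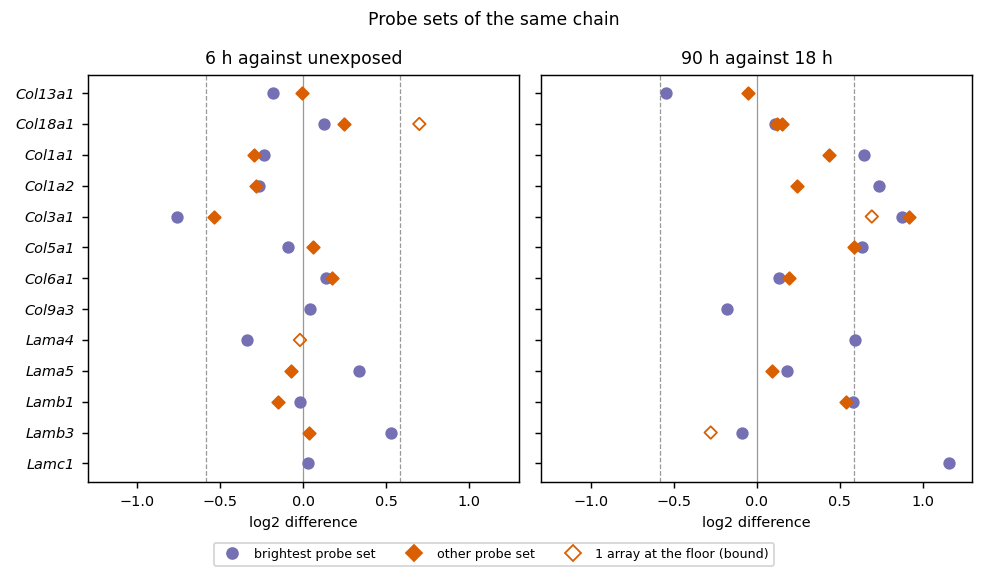
Log2 difference (x axis) of each probe set of the chains with more than 1, for 6 h against unexposed and 90 h against 18 h. Circles are the brightest probe set of a gene, diamonds the others, open diamonds have 1 array at the floor, and probe sets at the floor on both arrays are left out. From 18 to 90 h every pair measured on both arrays lies on the same side of 0.

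Enzymes that fold and crosslink collagen did not run with the fibrillar chains. Of 15 such genes on the array 12 were compared, with medians of -0.11, 0.16 and 0.10 at 6, 18 and 90 h. Lox and P4ha2 were at least 1.5-fold higher at 6 h, 2 of 12 against 7.34% of all genes. Lox, the lysyl oxidase that crosslinks collagen and elastin, read 176, 516, 224 and 185 units, 2.93-fold higher at 6 h, and its second probe set read 145, 459, 260.3 and 188 units. P4ha2, a prolyl hydroxylase subunit, read 148, 281, 189 and 178 units, 1.89-fold higher at 6 h, and its second probe set was also highest then. These were high in the pool where most fibrillar chains were low. Loxl1, a related oxidase, was 1.61-fold higher at 90 h. Serpinh1, the collagen chaperone HSP47, read 1239, 1087, 1067 and 1343 units, low and high in the same pools as Col1a1. P4hb was 3.54-fold lower at 90 h by its brightest probe set, but its other one read 237, 227, 292 and 235 units.

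Other parts of the basement membrane also went their own ways. Of 12 genes 10 were compared, with medians of -0.09, -0.06 and 0.07. Tinagl1, a basement membrane glycoprotein, read 242, 735, 469 and 261 units, 3.04-fold higher at 6 h. Npnt, which encodes nephronectin, an integrin ligand, read 805, 771, 428 and 798 units, 1.88-fold lower at 18 h, the pool where Lama2, Lama4 and Lamc1 were low. Agrn, which links laminin to dystroglycan, was 1.33-fold higher at 90 h and by its other probe set 0.11 log2 units higher. Fbln1, a fibulin of elastic fibres and basement membranes, was 1.34-fold lower at 6 and at 18 h and 1.26-fold lower at 90 h by its brightest probe set. Its other probe sets above the floor put it higher at 90 h, at 189 units unexposed against 302 and at 355 against 474.

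Proteins that bind fibrils had medians of -0.08, -0.06 and 0.17 in 10 of 14 genes. From 18 to 90 h Mfap4 and Ogn were at least 1.5-fold higher, 2 of 10 against 3.7% of all genes. Ogn, a small leucine-rich proteoglycan of collagen fibrils, read 835, 849.8, 463 and 871 units, low at 18 h alone, as did its second probe set at 527, 598, 322 and 473 units. Postn, periostin, was 1.57-fold lower at 18 h. Mfap4, a microfibril-associated protein, read 500, 488, 379 and 965 units by a probe set marked for possible cross-hybridisation, and its other one was under the floor in all pools. Bgn, the proteoglycan biglycan, was 1.29-fold higher at 90 h, and lower by its other probe set (log2 -0.11).

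The receptors had medians of 0.03, 0.01 and 0.20 in 11 of 13 genes, with 2 of 11 at least 1.5-fold higher at 90 h, against 3.47% of all genes. Sdc1, a heparan sulphate receptor of epithelium, was 1.83-fold higher and Cd44, a hyaluronan and matrix receptor, 1.62-fold. The Sdc1 fold comes from a probe set marked for possible cross-hybridisation, at 80.4 units in unexposed lungs. The other Sdc1 probe set read 62.8, 98.2, 114 and 95.2 units, highest at 18 h and at least 0.29 log2 units higher at 90 h. Itga3, a laminin-binding integrin chain, was 1.45-fold higher at 18 h, but its other probe set was not (log2 -0.09). Rpsa, a ribosomal protein also described as a laminin receptor, was 1.36-fold lower at 90 h. Among 12 compared genes of TGF-beta signalling, which drives collagen genes in fibroblasts, the medians were 0.19, -0.03 and 0.04. Ccn2, a matricellular target of that pathway, read 606, 1348, 887 and 561 units, 2.22-fold higher at 6 h. Tgfb3, a ligand, read 264, 172, 211 and 320.3 units, low and high in the same pools as the fibrillar chains. Smad2, which differed more from unexposed lungs, read 82.2, 122, 131 and 108 units, above unexposed in every exposed pool. Tgif1, a repressor induced by the pathway, was at least 1.86-fold and the coreceptor Tgfbr3 1.65-fold higher at 6 h.

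**Figure D5:**
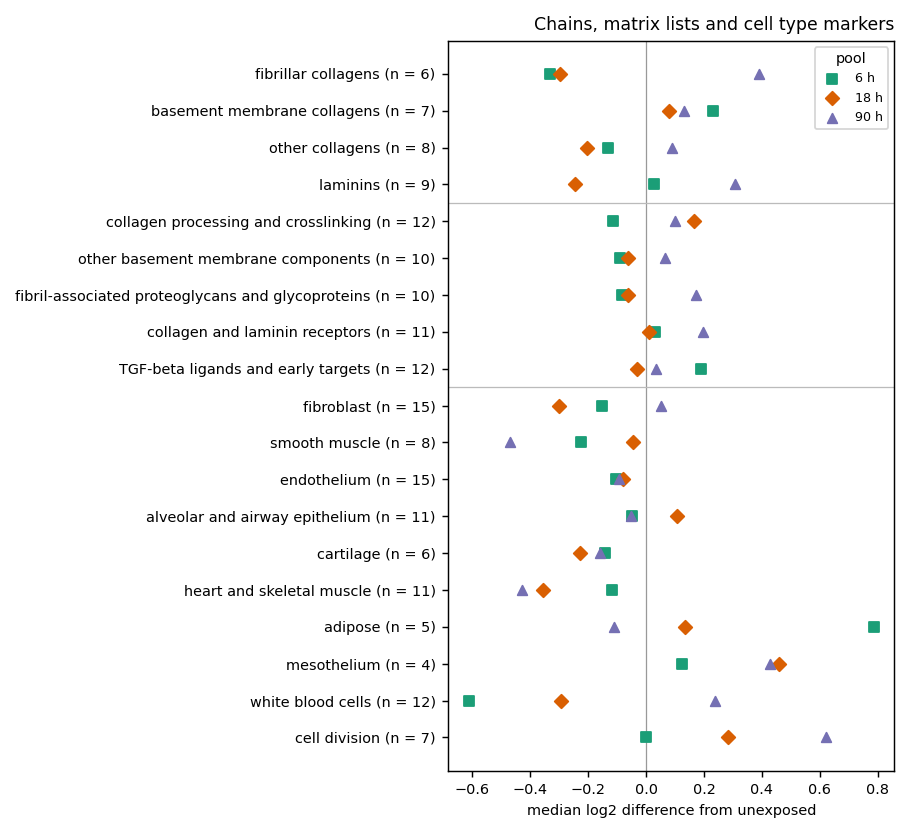
Median log2 difference from the unexposed pool (x axis) at 6, 18 and 90 h for the 4 classes of chains, 5 matrix lists and 10 marker lists, with the number of compared genes. Medians below 0 at 6 and 18 h and above 0 at 90 h occur for the fibrillar and the other collagens. They also occur for other basement membrane components, fibril-associated proteins, fibroblast markers and white blood cell markers.

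Markers of cell types differed between the pools as well. The 15 compared fibroblast markers of 16 had medians of -0.15, -0.30 and 0.05, and summed intensities of 10175 to 11517 units, lowest at 18 h. Among them Tcf21, a fibroblast transcription factor, was at least 2.32-fold lower at 6 h, and Clec3b read 194, 123, 101 and 259 units. Pdgfra, a defining fibroblast receptor, was 1.37-fold higher at 6 h by its brightest probe set, but not by another one (log2 -0.04). Some of these markers also stand in the lists of fibril-binding proteins and crosslinking enzymes. White blood cell markers, 12 of 15 compared, had medians of -0.61, -0.29 and 0.24 and summed intensities of 6010, 4124, 4535 and 6961 units. Of these lists 1 fibroblast marker and 2 white blood cell markers were under the floor in every pool. Cell division genes had medians of 0.00, 0.28 and 0.62 in 7 of 14 genes. Among them Birc5 was under the floor except at 90 h, where it read 529 units, and that pool alone brought it into the comparison. The median at 6 h is its value, with both pools at the floor. The median at 90 h is the value of Plk1 by its brightest probe set. Another Plk1 probe set, above the floor in the same pools, was lower at 90 h (log2 -0.32). The part of these marker lists in the course of the fibrillar chains was not tested.

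The 15 endothelial markers had medians of -0.11, -0.08 and -0.10, and the 11 of 13 epithelial markers -0.05, 0.11 and -0.05. Single markers in both lists went far in either direction. Kdr, a VEGF receptor, was 2.45-fold lower and Edn1, which encodes endothelin, 2.09-fold higher at 6 h. The epithelial keratins Krt8 and Krt18 were both at least 2-fold higher at 18 h, 2 of 11 markers against 1.63% of all genes. Smooth muscle markers were lower at 6 h and further so at 90 h, with medians of -0.22, -0.04 and -0.47 in 8 genes. Their summed intensities were 4783, 4010, 4626 and 3471 units in the 4 pools. The 11 of 14 heart and skeletal muscle markers had medians of -0.12, -0.36 and -0.43. Adipose markers had a median of 0.79 at 6 h in 5 of 7 genes, and the 4 mesothelial markers 0.12, 0.46 and 0.43.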

How the data were processed

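Total RNA of pooled whole lungs was read on 4 arrays, 1 per group. The deposited values are linear intensities, 1 for each probe set on each array. How the scanner output was summarised, corrected and scaled is not given in the sources used here. Of 12488 probe sets 66 were controls, 10833 had 1 gene symbol, 396 several and 1193 none listed. Symbols came from the platform annotation, and updating them through the gene identifier changed 0.

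Arrays were scaled to the mean of their trimmed means (2% at each end), floored at the 40th percentile and put on the log2 scale with Python 3.11.15, numpy 2.4.6 and pandas 2.3.3. Differences are the later pool minus the earlier. The code was tested on simulated data. Each compared fibrillar collagen, basement membrane collagen and laminin was named, other collagens if past 1.5-fold, and up to 4 genes per list. Col6a1, Col6a2, Col14a1 and the type IX chains, and some list genes (Serpinh1, Agrn, Bgn, Tgfb3), were named after their values were seen. The members and lists were chosen with earlier results of these data known. Alternatives were other scalings, floors, a pseudocount, other filters and other uses of probe sets. The number of arrays limits the precision.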

Additional observations from a re-analysis of the deposited data

How the results depend on the processing

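Across 10 alternatives no chain past 1.5-fold changed its direction, and every class median stayed within 1 SD of the probe set yardstick. The fibrillar median ran from -0.34 to -0.22 at 6 h, from 0.31 to 0.53 at 90 h and from 0.53 to 0.65 between 18 and 90 h. The laminin median at 90 h ran from 0.12 to 0.45. Unscaled values shift the median of all genes by 0.10, 0.13 and 0.14 at 6, 18 and 90 h. In alternatives chosen after seeing the data, the 90 h pool was the highest for 5 fibrillar chains in all 10 and for 4 to 6 laminins. That count always read the brightest probe set, so averaging probe sets or a pseudocount could not change it. The 5 fibrillar chains lay above every floor at 90 h, and none was read by a suffixed probe set. Other floors, other filters and leaving out suffixed probe sets could therefore not take them out of the count. For the fibrillar chains only the other scalings could have changed it. With its probe sets averaged, Col1a2 at 90 h was not above unexposed (log2 -0.01).

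Counts of chains past a fold were less stable, and the cause was not tested beyond what each alternative does by construction. Without scaling, 2 chains were 1.5-fold higher at 6 h, 1 was 1.5-fold lower and 1 was 2-fold higher at 18 h. With the floor at the 25th percentile, 4 were 1.5-fold and 1 was 2-fold higher at 18 h, 2 and 1 were so from 6 to 18 h, and 1 was lower from 18 to 90 h at either fold. With the floor at the 60th percentile, 0 were 1.5-fold higher at 6 h and 0 lower from 6 to 18 h. With a pseudocount in place of the floor, 0 were 1.5-fold higher at 6 h, 1 lower at 18 h, 1 higher at 90 h and 0 lower from 6 to 18 h, and 0 were 2-fold higher from 18 to 90 h. With the mean of all probe sets of a gene, 1 was 1.5-fold lower at 6 h, 0 were higher at 18 h, 2 at 90 h, 0 from 6 to 18 h and 4 from 18 to 90 h, of which 1 was 2-fold higher. Without suffixed probe sets, 1 was 1.5-fold higher at 18 h, 2 at 90 h and 0 from 6 to 18 h, and 1 was 2-fold higher from 18 to 90 h. With genes above the floor on all 4 arrays alone, 0 were higher at 6 h. No replicate could be left out. No paired analysis was possible because each group has 1 array. Dim chains near the floor are limited most.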

Other observations

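Col8a1, a short-chain collagen of vessel walls and injured tissue, was left out of the comparisons because the mean of its 4 intensities lay under the floor. It read 47.3, 30.7, 104 and 48.2 units in the unexposed, 6, 18 and 90 h pools, above the floor at 18 h alone. The fold at 18 h was at least 1.34. With the floor at the 25th percentile it entered the comparisons. Col19a1 read 23.9, 57.1, 78.1 and 60.8 units, and it reached the floor of 77.7 at 18 h alone.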
